A study of Mus musculus with 8 samples.

Results

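The collagen genes were followed across 8 mouse adrenal glands. A gene was counted as a member when its symbol read Col, a number, the letter a and a number, and when its deposited counts summed to at least 80 over the 8 libraries. Of the 18846 genes listed, 44 had such a symbol and 37 reached the minimum. The 7 that did not were Col2a1 (12 counts), Col9a1 (4), Col19a1 (13), Col24a1 (15), Col26a1 (50), Col4a6 (44) and Col6a4 (44). The members with the fewest counts were Col9a2 with 96 and Col17a1 with 107. All 37 passed the filter on low counts. RNA was measured in 1 adrenal library from each of 8 animals of strain 129SVEV, of an age that the sources do not state. In each of 2 genotypes, wild type and Siah1a -/- (Siah1a encodes an E3 ubiquitin ligase, and the nature of the allele is not described), 2 animals were untreated and 2 had been given adrenocorticotropic hormone (ACTH) into the peritoneum at 100 µg/kg for 1 hour. In each of the 4 groups 1 animal carried the label male and 1 the label female. No vehicle injection is described for the untreated animals, so ACTH and the injection cannot be told apart.

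Collagens are long helical molecules wound from chains that may be copies of 1 gene's product or come from different genes, and they give tissues their scaffold. Fibrillar collagens such as types I, III and V build the fibres of capsules and septa, type IV forms the sheet inside basement membranes, and type VI forms beaded filaments between the fibres and the cells. In the adrenal gland collagen lies in the fibrous capsule, around the blood sinusoids and between the cords of cortical cells, and ACTH is the pituitary hormone that drives glucocorticoid synthesis in those cords.

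The libraries held between 8020111 and 29568950 estimated counts, and levels are given as CPM, counts scaled to library size with TMM factors. Siah1a itself was still counted in all 4 Siah1a -/- libraries, at 17.4 to 25.2 CPM against 26.1 to 33.1 CPM in wild type, and the files do not show which exons those reads cover. Xist and the Y-linked genes went against 1 label: the wild-type untreated library labelled male held 388 CPM of Xist and 3.06 CPM of 4 Y-linked genes together, and the other 3 libraries labelled male held 4.05 to 31.8 CPM and 490.4 to 605 CPM. It keeps its label in all fits. The same library held kidney tubule transcripts (1798 CPM over 6 markers, at most 7.88 CPM elsewhere), and the wild-type ACTH library labelled female held liver transcripts (60456 CPM over 6 markers, at most 671 CPM elsewhere). The Siah1a -/- ACTH library labelled male had 331 CPM of 4 neuronal markers, against 14.9 to 47.3 CPM elsewhere, and the least of 8 fibroblast and capsule markers (101 CPM, against 169 to 237 CPM). Summed markers of the adrenal cortex, 8 genes that include Star and Cyp11a1, were the most abundant list in 7 of the libraries (26970 to 51290 CPM over all 8).

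Start regions are shown first for 4 members. Col6a1, Col6a2 and Col6a3 encode the chains that are wound into 1 collagen VI molecule. Each was lower in Siah1a -/- in all 4 pairs of animals, as held for 12.7% of all genes. Col18a1 is shown at its upstream start because its counts came from transcripts with different starts. All 4 genes lie on the minus strand. The sequences are RefSeq's on GRCm38.p6 (mm10), read 5′ to 3′, and hold only bases before the start that fall outside every exon of GENCODE M21. Capitals mark a match, on either strand, to the CCAAT box or the GC box.
Col6a1, chr10:76726169-76726294, bases -250 to -125 from the RefSeq start: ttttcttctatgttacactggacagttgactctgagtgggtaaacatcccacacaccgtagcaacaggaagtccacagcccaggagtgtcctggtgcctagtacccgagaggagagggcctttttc
Col6a2, chr10:76623631-76623880, bases -250 to -1: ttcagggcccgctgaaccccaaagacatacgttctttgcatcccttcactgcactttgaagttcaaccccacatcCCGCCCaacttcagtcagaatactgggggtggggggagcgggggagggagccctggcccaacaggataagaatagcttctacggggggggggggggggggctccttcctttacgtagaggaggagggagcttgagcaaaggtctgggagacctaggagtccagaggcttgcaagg
Col6a3, chr1:90843972-90844221, bases -250 to -1: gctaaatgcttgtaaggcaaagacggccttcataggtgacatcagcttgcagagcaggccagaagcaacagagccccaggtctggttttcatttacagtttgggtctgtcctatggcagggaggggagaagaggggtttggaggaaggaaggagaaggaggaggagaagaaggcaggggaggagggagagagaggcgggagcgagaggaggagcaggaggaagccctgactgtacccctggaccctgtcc
Col18a1, chr10:77166549-77166780, bases -250 to -19 of the upstream start: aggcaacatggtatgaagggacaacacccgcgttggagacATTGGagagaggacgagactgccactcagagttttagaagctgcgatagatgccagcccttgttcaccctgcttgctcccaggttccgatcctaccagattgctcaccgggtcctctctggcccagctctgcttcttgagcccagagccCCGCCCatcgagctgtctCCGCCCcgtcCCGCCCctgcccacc

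The Col6a2 stretch held 1 GC box, at -175 to -170, and the stretches of Col6a1 and Col6a3 held no match to the 3 motifs searched on both strands, the TATA box (TATAAA), the CCAAT box (CCAAT) and the GC box (GGGCGG). Upstream of Col18a1 lay 1 CCAAT box, at -210 to -206, and 3 GC boxes, which start at -61, -43 and -33. RefSeq start regions were found for 30 of the 37 members. Among these, the 250 bases before at least 1 start held a TATA box in 5, a CCAAT box in 11 and a GC box in 19. Of 32851 such regions over all genes, counted per region, 12.4% held a TATA box, 33.8% a CCAAT box and 32.7% a GC box. A gene with several starts has several regions, so counts of members and shares of regions are in unlike units. Several members are neighbours on a chromosome: Col4a1 and Col4a2 start head to head on chromosome 8 with gene models that overlap by 22 bases, Col4a3 and Col4a4 start head to head 71 bases apart on chromosome 1, and Col6a1 and Col6a2 lie on the same strand of chromosome 10, 85161 bases apart. These letters are a description of the sequence and were not tested against the levels.

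Type IV, VI, III and I collagens were the most abundant members per length. In the deposited RPKM, summed per gene, Col6a1 averaged 70.7 (27.9 to 129.7 over the 8 libraries), Col4a1 68.4 (51.1 to 99.5), Col3a1 47.4 (11.7 to 105), Col1a2 42.7 (25.5 to 70.8) and Col4a2 40.1 (30.9 to 60.9). The ranges of each neighbouring pair in this order overlapped. Col1a1 followed at a mean RPKM of 17.2, then Col5a3 at 15.0 and Col18a1 at 14.2. These 8 were the members with a mean of 10 RPKM or more, and 12 of the 37 averaged under 1 RPKM. The chains of collagen VI were far from equal, with Col6a2 at a mean RPKM of 9.20 and Col6a3 at 4.58.

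**Figure D1:**
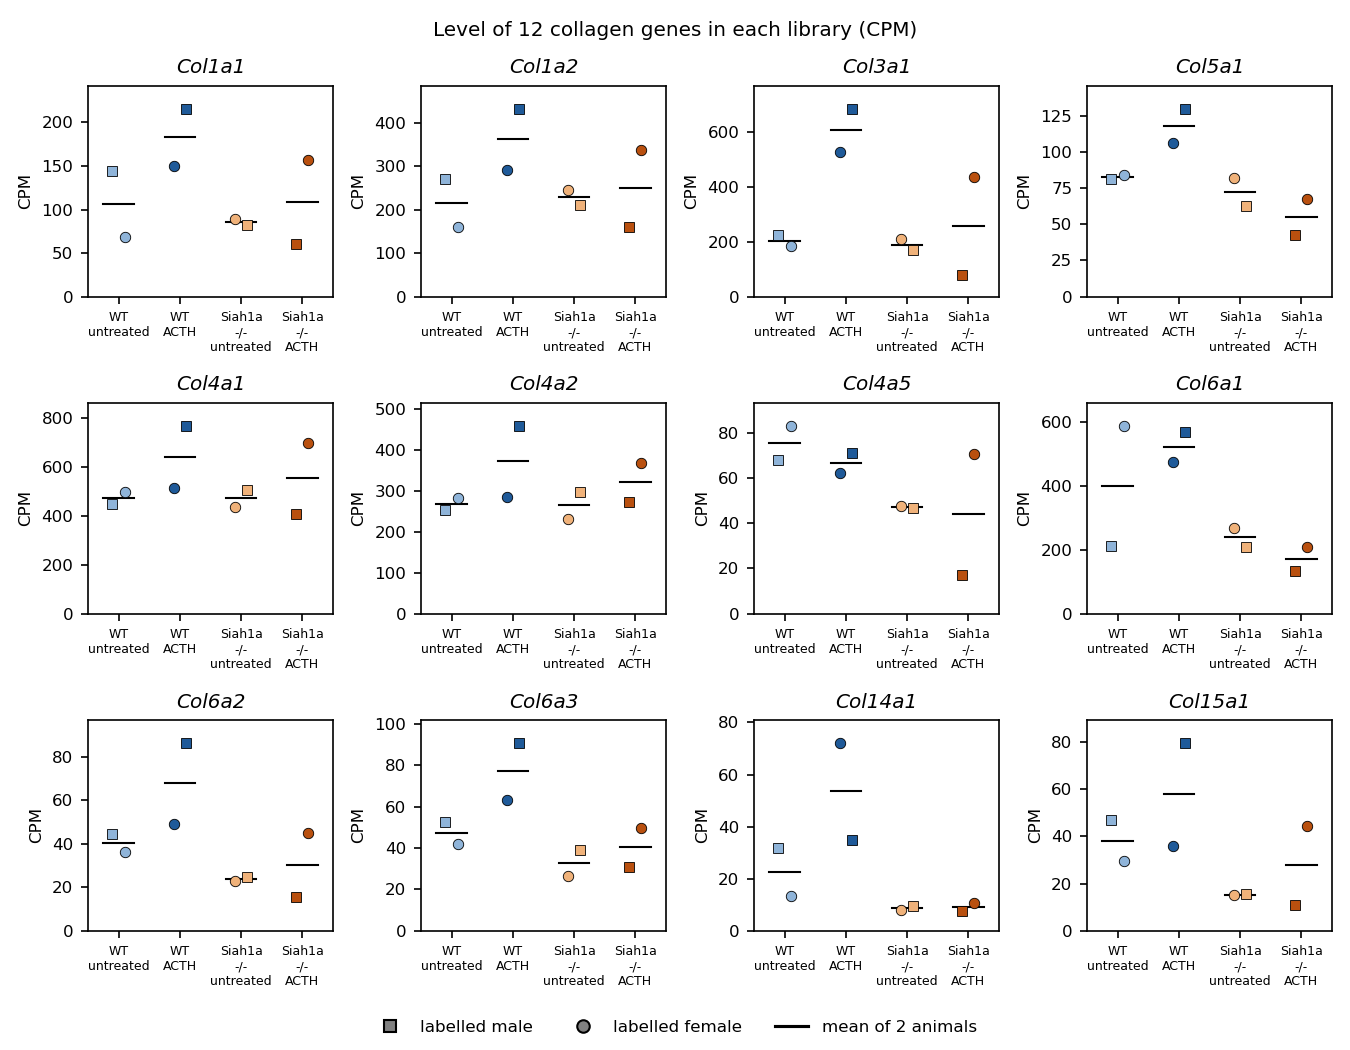
Level of 12 collagen genes in each of the 8 libraries, in CPM on linear axes from 0. Squares are animals labelled male, circles animals labelled female and lines the mean of the 2 animals of a group; Col14a1 is the gene whose 4 Siah1a -/- libraries (7.61 to 10.8 CPM) all lie below the 4 wild-type libraries (13.5 to 72.3 CPM).

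The first comparison asked how collagen levels differed between Siah1a -/- and wild type, 4 libraries against 4, averaged over treatment and sex label. The fitted differences of most members lay below 0, those of Col14a1, Col15a1, Col6a1 and Col6a2 farthest among the members with a mean of at least 10 CPM, and no member passed the test. With edgeR (quasi-likelihood, Benjamini-Hochberg adjusted p under 0.05) 0 of the 37 members were called, where 0.026% of the 15361 genes tested were called. At an unadjusted p under 0.05, 6 members were lower and 0 higher, against 8.11% of all genes lower and 5.33% higher. DESeq2 called 2 members, Col14a1 and Col6a1, and limma-voom 0. The shares of all genes that these tools called are not given here, so the 2 calls cannot be set against a background. The median log2 fold change of the members was -0.52 and that of all genes -0.044, and 29 members lay below 0 (78.4%, against 53.5% of all genes). Col6a5, Col6a6, Col11a2 and Col17a1 reached the minimum of 80 counts only through wild type, and Col9a3 only through Siah1a -/-. Their signs in this comparison partly restate that rule. In bulk tissue, fewer cells of a type and less RNA per cell cannot be told apart. The 6 chromaffin cell markers, of the adrenal medulla, summed to 6053 to 7407 CPM in 3 of the Siah1a -/- libraries and to 2026 to 4020 CPM in wild type. They were lowest, at 1809 CPM, in the Siah1a -/- ACTH library labelled female, which held the most collagen of its genotype. The part of the medulla in the collagen levels was not tested.

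That lean was carried by the members with a mean of at least 10 CPM, of which 21 of 22 lay below 0, while 8 of the 15 with less lay below 0. Leaving out the Siah1a -/- ACTH library labelled male put 26 of the 37 below 0, with a median of -0.43. Without the wild-type ACTH library labelled male, the one with the most collagen, the count was again 26 and the median -0.44. The median was -0.24 without the wild-type untreated library labelled male and -0.38 without both wild-type libraries with kidney or liver RNA. The median of all genes in these 4 fits lay between -0.10 and -0.026.

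**Figure D2:**
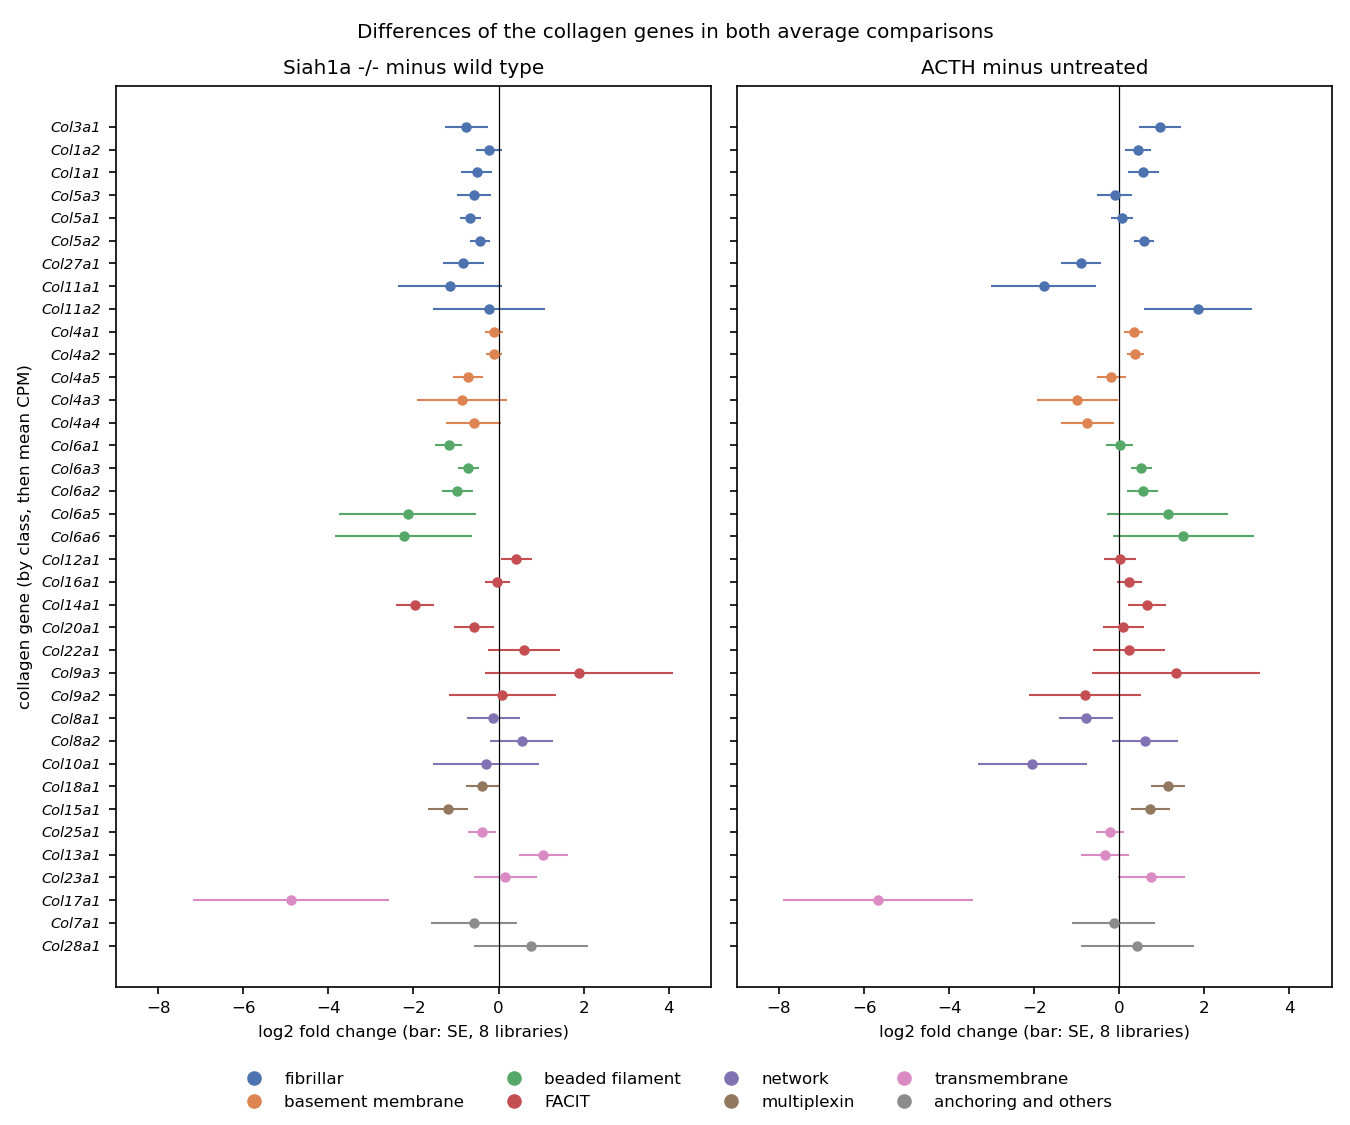
Fitted log2 fold change of each of the 37 collagen genes (x axis) with its SE, from 8 libraries, grouped by collagen class and ordered within a class by mean CPM (y axis). Left, Siah1a -/- minus wild type, where 29 points lie below 0; right, ACTH minus untreated, where 24 lie above 0.

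Fibrillar collagens, in which Col1a1 and Col1a2 make type I, Col3a1 type III and Col5a1 to Col5a3 type V, had log2 fold changes below 0 for all 9 members (median -0.58), with 0 called and 1 at an unadjusted p under 0.05. In what follows, each group's animal labelled male is given first. Col5a1, whose chain helps to start fibrils, stood at 80.9 and 84.1 CPM in untreated and 129.8 and 106 CPM in ACTH-treated wild type, and at 62.9 and 81.7 CPM in untreated and 42.4 and 67.5 CPM in ACTH-treated Siah1a -/-. The highest Siah1a -/- library thus lay above the lowest wild-type library. With a log2 fold change of -0.67 (SE 0.25) Col5a1 was not called (edgeR, adjusted p = 0.304). The mean of Col3a1 was 405 ± 241 CPM in wild type against 224 ± 152 CPM in Siah1a -/- (SD, n = 4), and its log2 fold change -0.76 (SE 0.50, edgeR adjusted p = 0.564), which was -0.22 without the Siah1a -/- ACTH library labelled male, -0.47 without the wild-type ACTH library labelled male and -1.20 without the wild-type untreated library labelled female. The groups overlapped widely: the wild-type libraries ranged from 183 to 685 CPM and the Siah1a -/- libraries from 78.7 to 436 CPM. For Col1a2 the means were 289 ± 112 and 239 ± 74.1 CPM, the log2 fold change was -0.22 (SE 0.31, adjusted p = 0.807), and it read 0.12 without the Siah1a -/- ACTH library labelled male. Col1a1 (144.7 ± 60.1 and 97.3 ± 41.6 CPM), Col5a2 (65.4 ± 18.0 and 48.5 ± 18.9 CPM) and Col5a3 (129.6 ± 21.3 and 87.9 ± 44.8 CPM) overlapped between the genotypes as well.

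Basement membrane collagen IV is built mainly from the Col4a1 and Col4a2 chains, and these chains were close between the genotypes. Col4a1 stood at 448 and 496 CPM in untreated and 770.4 and 515 CPM in ACTH-treated wild type. In Siah1a -/- it stood at 508 and 437 CPM untreated and at 409.8 and 699 CPM after ACTH, within the range of wild type except for the lowest 2 libraries. The log2 fold changes were -0.11 for Col4a1 (SE 0.22, edgeR adjusted p = 0.875) and -0.11 for Col4a2 (SE 0.20, adjusted p = 0.858), and both turned positive without the wild-type ACTH library labelled male (0.083 and 0.072) and without the Siah1a -/- ACTH library labelled male (0.075 and 0.025). Col4a5, a chain of the alternative collagen IV network, had a mean of 71.1 ± 8.84 CPM in wild type against 45.4 ± 21.8 CPM in Siah1a -/-. Its lowest library was the Siah1a -/- ACTH library labelled male (17.3 CPM), and the other 3 of that genotype held 46.6 to 70.4 CPM against 62.3 to 83.1 CPM in wild type. Of the 5 measured members of the class, 5 lay below 0 and 0 were called.

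Collagen VI showed the lowest class median among the classes with at least 3 members. All 5 of its measured genes lay below 0 (median -1.17), 3 of them at an unadjusted p under 0.05 and 0 called in edgeR. Col6a1 stood at 212 and 589.6 CPM in untreated wild type, 569 and 475 CPM in ACTH-treated wild type, 208 and 269.9 CPM in untreated Siah1a -/- and 135 and 208 CPM in ACTH-treated Siah1a -/-. Of the wild-type libraries 3 were above every Siah1a -/- library, and the one labelled untreated wild-type male lay within the Siah1a -/- range. The log2 fold change of Col6a1 was -1.17 (SE 0.32, edgeR adjusted p = 0.198, DESeq2 adjusted p = 0.0020, range 0.0020 to 0.459 over 14 alternatives), and it was -1.55 without the 2 wild-type libraries with kidney or liver RNA. Col6a2 read 44.3 and 36.4, then 86.6 and 49.4 CPM in untreated and ACTH-treated wild type, and 24.6 and 22.8, then 15.4 and 45.0 CPM in Siah1a -/-. Only its Siah1a -/- ACTH library labelled female reached the wild-type range. Its log2 fold change was -0.97 (SE 0.37, edgeR adjusted p = 0.305). Col6a3 ranged from 42.0 to 91.0 CPM in wild type and from 26.6 to 49.5 CPM in Siah1a -/-, with a log2 fold change of -0.71 (SE 0.24, edgeR adjusted p = 0.264). The sparsely counted Col6a5 (0 to 7.96 CPM in wild type, 0.0812 to 1.64 CPM in Siah1a -/-) and Col6a6 (1.18 to 4.16 and 0 to 2.76 CPM) had no counts in 1 and 2 libraries, where 3 counts would be 0.353 CPM and at most 0.244 CPM. Lower in all 4 pairs of animals with the same treatment and sex label were Col5a1, Col6a1, Col6a2, Col6a3, Col6a6 and Col14a1, which is 16.2% of the members against 12.7% of all genes. The place of Col6a6 in this count partly restates the minimum for members. The untreated pair labelled male is not matched for sex by its transcripts.

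Fibril-associated collagens (FACIT), which coat the surface of fibrils, did not lean one way: 3 of 7 lay below 0 (median 0.088). Col14a1, whose product binds collagen I fibrils, stood at 31.6 and 13.5 CPM in untreated and 35.0 and 72.3 CPM in ACTH-treated wild type, and at 9.50 and 7.88 CPM in untreated and 7.61 and 10.8 CPM in ACTH-treated Siah1a -/-. It was the 1 member whose genotypes did not overlap (2.7% of the members, against 4.71% of all genes with Siah1a -/- below wild type), and 0 members had Siah1a -/- wholly above wild type (4.21% of all genes). The mean was 38.1 ± 24.7 CPM in wild type and 8.95 ± 1.49 CPM in Siah1a -/- (SD, n = 4). At a log2 fold change of -1.96 (SE 0.44) Col14a1 missed the threshold in edgeR (adjusted p = 0.146), passed it in DESeq2 (adjusted p = 0.0012) and ranged in adjusted p from 0.0012 to 0.492 over 14 alternatives. Without the wild-type untreated library labelled female, the lowest of the wild type, it was the only member called (log2 fold change -2.33, edgeR adjusted p = 0.0198, share of all genes called not given here). Without both wild-type libraries with kidney or liver RNA it was -1.30 (adjusted p = 0.492), and the 2 wild-type libraries left, 13.5 and 35.0 CPM, still lay above the 4 of Siah1a -/-. Col12a1 was even in wild type (32.8 ± 0.823 CPM) and spread from 21.3 to 70.4 CPM in Siah1a -/- (44.2 ± 22.5 CPM). Col16a1 had nearly equal means, 23.9 ± 5.80 and 23.3 ± 6.59 CPM (log2 fold change -0.031, SE 0.30, edgeR adjusted p = 0.980). The other FACIT members were sparse, with Col20a1 at 3.06 to 9.25 CPM, Col22a1 at 0.941 to 4.44 CPM, Col9a2 at 0.153 to 2.47 CPM and Col9a3 at 0 to 3.56 CPM over the 8 libraries.

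Multiplexins are basement-membrane collagens with interrupted helices. Col15a1 stood at 46.8 and 29.6, then 79.7 and 36.0 CPM in untreated and ACTH-treated wild type, and at 15.4 and 15.3, then 11.1 and 44.6 CPM in Siah1a -/-. Of the Siah1a -/- libraries 3 lay below every wild-type library, and the ACTH-treated one labelled female lay among them. That library also held the most adipocyte markers (4819.6 CPM over 6 genes, against 1619 to 4101 CPM elsewhere), and their part in the Col15a1 level was not tested. The log2 fold change of Col15a1 was -1.19 (SE 0.48, edgeR adjusted p = 0.338). Col18a1, the precursor of endostatin, is described below with its transcripts. Among the transmembrane collagens, Col13a1 was the 1 member higher in Siah1a -/- in all 4 pairs (2.7%, against 10.8% of all genes), at 1.76 to 10.7 CPM in wild type and 9.27 to 17.2 CPM in Siah1a -/- (log2 fold change 1.05, SE 0.58, edgeR adjusted p = 0.476). Col25a1 averaged 19.6 ± 5.61 and 14.9 ± 3.90 CPM (log2 fold change -0.39, SE 0.33, edgeR adjusted p = 0.659).

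The weakly counted members did not separate by genotype. Network collagens Col8a2 (1.99 to 10.6 CPM over the 8 libraries) and Col10a1 (0 to 10.1 CPM, the latter known from growth plate cartilage) overlapped fully, and Col8a2 had a log2 fold change of 0.54 (SE 0.73, edgeR adjusted p = 0.796). Col7a1, which anchors epithelia to the tissue below, ranged from 0.285 to 6.29 CPM (-0.57, SE 1.01, adjusted p = 0.854), and Col28a1 from 0 to 4.48 CPM (0.76, SE 1.34, adjusted p = 0.851). The fibrillar Col11a1 (0 to 7.41 CPM) and Col11a2 (0.235 to 4.01 CPM), known from cartilage, were near the limit of what these depths can count.

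Between the genotypes, fitted differences were calculated apart for untreated and ACTH-treated animals, with 0 members called in either, and those of Col14a1, Col6a1 and Col5a1 were the largest relative to their SE after ACTH. The interaction that tests whether both differ is given with the ACTH results. Among untreated animals, 2 against 2, 24 of 37 members lay below 0 (49.9% of all genes did), 1 was lower and 0 higher at an unadjusted p under 0.05 (2.64% and 2.2% of all genes), and 0.0% of all genes were called. Col14a1 had a log2 fold change of -1.37 (SE 0.57, edgeR adjusted p = 0.892), Col4a3 -2.50 (SE 1.22), Col15a1 -1.31 (SE 0.70) and Col25a1 -0.84 (SE 0.45), all at the same adjusted p. Without the wild-type untreated library labelled male, which held kidney RNA, Col4a3 stood at -0.21 and Col14a1 at -0.38. After ACTH, 26 of 37 lay below 0 (55.2% of all genes did), 4 were lower and 0 higher at an unadjusted p under 0.05 (5.42% and 2.81% of all genes), and 0.00651% of all genes were called. The 4 were Col14a1 (log2 fold change -2.54, SE 0.59, edgeR adjusted p = 0.389), Col6a1 (-1.69, SE 0.40, adjusted p = 0.397), Col5a1 (-1.14, SE 0.28, adjusted p = 0.441) and Col6a3 (-0.90, SE 0.36, adjusted p = 0.589). DESeq2 called Col14a1, Col6a1 and Col5a1 after ACTH and 0 members among untreated animals, and the share of all genes that it called is not given here. Both contrasts come from 1 fit of the 8 libraries, in which the 4 groups share 1 estimate of spread. Leaving out the Siah1a -/- ACTH library labelled male leaves 1 treated Siah1a -/- library. After ACTH, 23 of the 37 members then lay below 0 (62.2%, against 59.8% of all genes). Of the 22 members with a mean of at least 10 CPM, 11 did, against 17 with all libraries.

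The second comparison set the 4 ACTH-treated libraries against the 4 untreated ones, averaged over genotype and sex label. Fitted differences lay above 0 for 24 of the 37 members (median 0.23, all genes 0.023), as did those of 52.2% of all genes, and 0 were called in edgeR, where 0.0195% of all genes were. At an unadjusted p under 0.05, 2 members were higher and 1 lower, against 3.49% and 2.62% of all genes, and DESeq2 and limma-voom called 0. The lower one was Col17a1, which reached the minimum of 80 counts only through an untreated library, so its place in this count restates that rule. Col6a5, Col6a6, Col9a3 and Col11a2 reached it only through ACTH-treated libraries, and Col10a1 only through untreated ones. Their signs in this comparison partly restate the rule as well. The wild-type ACTH library labelled male held the highest level of 12 of the 22 members with a mean of at least 10 CPM. Without it, 19 of the 37 members lay above 0 and the median was 0.12. That library also held the most fibroblast and capsule markers (237 CPM) and the most endothelial markers (680 CPM over 7 genes, against 401 to 659 CPM elsewhere), and their part in the result was not tested. Without the Siah1a -/- ACTH library labelled male, the median was 0.41 and 9 members were higher at an unadjusted p under 0.05, with 0 called. Over all 16326 genes of that fit the median was 0.040, 662 were higher at that p and 12 were called higher.

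By class, collagen VI lay above 0 after ACTH in 5 of 5 members (median 0.55), the fibrillar collagens in 6 of 9 (median 0.44) and the FACIT genes in 6 of 7 (median 0.22). These counts include Col6a5, Col6a6, Col11a2 and Col9a3, whose signs partly restate the minimum for members. Collagen IV lay below 0 in 3 of 5 (median -0.19), the transmembrane collagens in 3 of 4 (median -0.27) and the network collagens in 2 of 3 (median -0.79). Col5a2, a type V chain, stood at 59.7 and 44.6 CPM in untreated and 87.4 and 69.8 CPM in ACTH-treated wild type, and at 39.2 and 38.8 CPM in untreated and 39.1 and 76.8 CPM in ACTH-treated Siah1a -/-. It was higher with ACTH in 3 of 4 pairs, with a log2 fold change of 0.58 (SE 0.24, edgeR adjusted p = 0.798). Col6a3 was also higher in 3 of 4 pairs (0.52, SE 0.24, adjusted p = 0.811). For Col3a1 the means were 197 ± 25.6 CPM untreated and 431 ± 257 CPM with ACTH (SD, n = 4), and the log2 fold change 0.95 (SE 0.50, adjusted p = 0.833). Its treated libraries spread from 78.7 CPM, below all untreated ones, to 685 CPM. Col4a1 (0.34, SE 0.22) and Col4a2 (0.38, SE 0.20) had edgeR adjusted p values of 0.876 and 0.835, while Col4a3, Col4a4 and Col4a5 lay at -0.99, -0.75 and -0.19, and Col6a1 was level at 0.0080 (SE 0.32, adjusted p = 0.998). Col6a5, at 0 to 2.57 CPM untreated and 0.536 to 7.96 CPM with ACTH, was the 1 member higher in all 4 pairs (2.7%, against 8.14% of all genes), and 0 were lower in all 4 (7.27% of all genes). In 0 members were the ACTH and untreated groups of 4 apart, against 1.8% of all genes with ACTH higher and 2.1% with ACTH lower. Of the members with most RPKM in their class, Col1a2 (0.44, SE 0.31), Col15a1 (0.73, SE 0.46), Col14a1 (0.65, SE 0.44), Col6a2 (0.55, SE 0.36), Col8a2 (0.60, SE 0.77), Col28a1 (0.42, SE 1.33) and Col16a1 (0.23, SE 0.29) lay above 0. Col25a1 (-0.22, SE 0.33), Col13a1 (-0.33, SE 0.56), Col8a1 (-0.79, SE 0.64) and Col7a1 (-0.14, SE 0.98) lay below 0, and edgeR adjusted p values of these 11 ran from 0.864 to 0.993.

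Within wild type, ACTH-treated against untreated animals (2 against 2), 26 of 37 members lay above 0 (median 0.46, all genes 0.056), as did 54.8% of all genes. At an unadjusted p under 0.05, 1 was higher and 0 lower (1.97% and 0.586% of all genes), and 0 members and 0.0% of all genes were called. Without the wild-type ACTH library labelled male, 19 lay above 0 and the median was 0.0092. Col3a1 stood at 225 and 183 CPM untreated and 685 and 526 CPM after ACTH, with a log2 fold change of 1.58 (SE 0.65, edgeR adjusted p = 1.0). Col14a1 had a log2 fold change of 1.25 (SE 0.58, adjusted p = 1.0). Within Siah1a -/-, 25 of 37 lay above 0 (median 0.10, all genes -0.015), as did 48.7% of all genes. At an unadjusted p under 0.05, 0 were higher or lower (1.96% and 2.27% of all genes), and 0 members and 0.0% of all genes were called. The 4 smallest p values there belonged to Col11a1 (-3.26, SE 1.88), Col23a1 (1.76, SE 1.02), Col18a1 (0.96, SE 0.58) and Col5a2 (0.56, SE 0.37), each with an edgeR adjusted p of 0.999. Col23a1 rested on 1 library, the ACTH-treated one labelled male at 21.4 CPM against 2.19 to 7.96 CPM in the other 3 of Siah1a -/-.

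**Figure D3:**
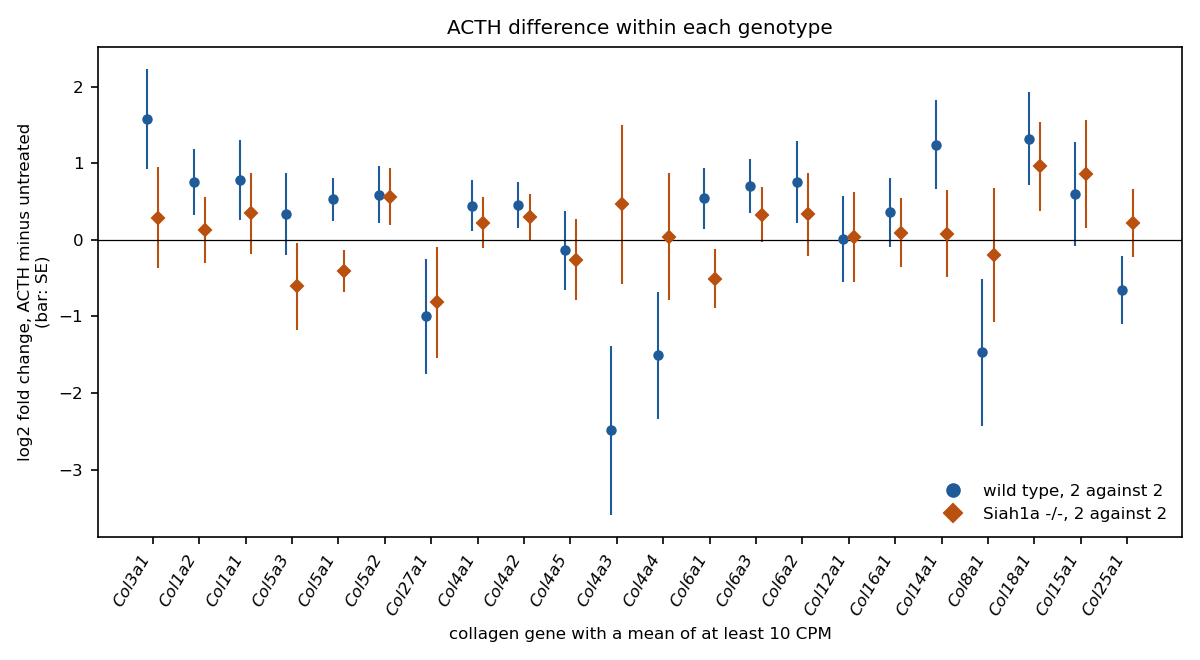
ACTH minus untreated as log2 fold change (y axis) with its SE for the 22 collagen genes with a mean of at least 10 CPM (x axis), in wild type (circles) and Siah1a -/- (diamonds), 2 animals against 2 each. Col5a1 lies above 0 in wild type and below 0 in Siah1a -/-, a difference of -0.93 that was not called.

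Whether ACTH acted differently by genotype was tested as an interaction. In all, 0 of 37 members were called in edgeR, DESeq2 or limma-voom, 0.0% of all genes were called in edgeR, and 0 members had an unadjusted p under 0.05 in edgeR, against 1.26% of all genes below 0 and 0.579% above 0. Below 0 lay 27 of the 37 members (median -0.36, all genes -0.087, 55.7% of all genes below 0), and 18 without the Siah1a -/- ACTH library labelled male. Col5a1 was higher with ACTH in both wild-type pairs and lower in both Siah1a -/- pairs, at the levels given above. The difference between these ACTH effects was -0.93 on the log2 scale (SE 0.39) and was not called (edgeR, unadjusted p = 0.0502, adjusted p = 1.0). It kept its sign under all 14 alternatives, from -1.57 to -0.58. Col6a1 had a difference of -1.05 (SE 0.55) and Col14a1 of -1.17 (SE 0.80), both with an adjusted p of 1.0. That of Col4a3, 2.95 (SE 1.52, adjusted p = 1.0), turned to -0.89 without the 2 wild-type libraries with kidney or liver RNA.

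Ratios between partner chains compare genes within a library, and each is a ratio of RPKM. With RPKM summed per gene, Col4a1 to Col4a2, the head-to-head pair, was the steadiest of 8 ratios examined, at 1.46 to 1.85 over the 8 libraries. The RPKM of each gene varied 1.95-fold and 1.97-fold. NR_133670, listed in RefSeq as non-coding, held 12.5% to 34.2% of the Col4a1 counts. NM_009931 alone was less even: 35.7 RPKM against 35.1 of Col4a2 in the Siah1a -/- ACTH library labelled male, and 79.0 against 48.8 in the one labelled female. Col1a1 to Col1a2, the chains of type I collagen, ranged from 0.32 to 0.47. Its median was 0.45 in wild type and 0.34 in Siah1a -/-, with ranges of 0.38 to 0.47 and 0.32 to 0.41 that overlapped. Col6a1 to Col6a2 was less even, from 4.34 to 15.2, and Col6a2 to Col6a3 ran from 1.20 to 2.31, lowest in the Siah1a -/- ACTH library labelled male. Col3a1 to Col1a1 was 3.38 and 3.75 in ACTH-treated wild type and 1.39 to 2.96 in the other 6 libraries. These ratios share library and depth between their terms and were not tested.

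**Figure D4:**
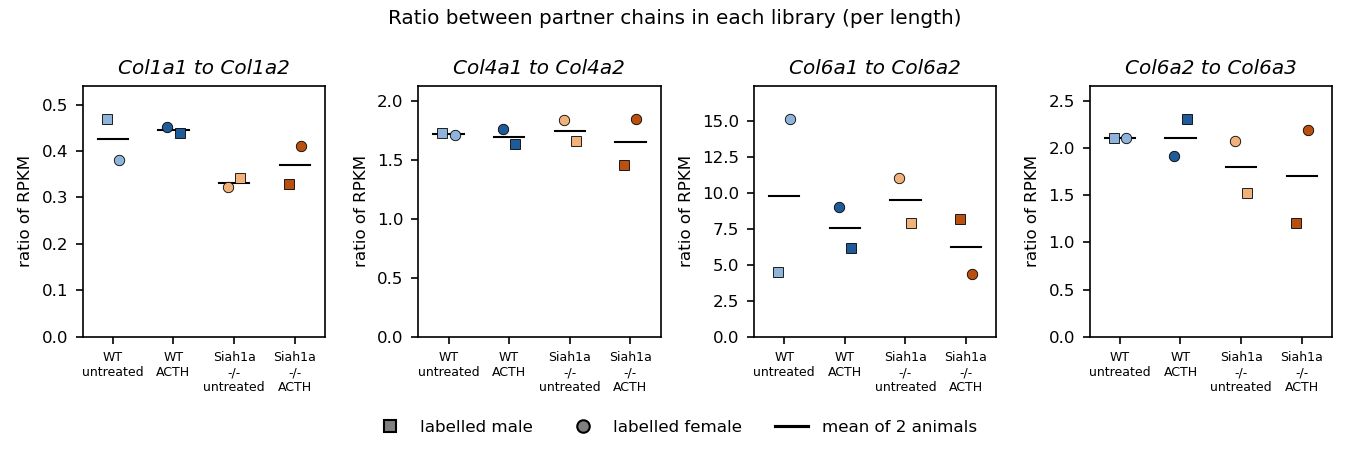
Ratio of RPKM, summed per gene over its transcripts, between partner chains of collagen I, IV and VI (y axes, linear from 0) in each of the 8 libraries. Squares are animals labelled male, circles animals labelled female and lines the mean of 2 animals; Col4a1 to Col4a2 stays between 1.46 and 1.85, and Col6a1 to Col6a2 spreads from 4.34 to 15.2.

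Several members stood high in 1 library and not in the rest of its group. In the wild-type untreated library labelled male, 4 members were at least 3 times higher than in every other library. Col4a3, a chain of the collagen IV network of the kidney glomerulus, read 109.8 CPM there and 4.25 to 21.5 CPM elsewhere. Col8a1, a short-chain network collagen, read 37.0 CPM against 4.49 to 11.0 CPM, and Col27a1, a fibrillar collagen known from cartilage, 62.2 CPM against 6.13 to 15.5 CPM. Col17a1, a transmembrane collagen of hemidesmosomes, read 9.41 CPM against 0 to 0.975 CPM. Of its 107 counts 80 lay in that library and at most 12 in any other, so Col17a1 reached the minimum of 80 counts only through the library in which it was high, and its difference there was set by that rule. Col4a4, the head-to-head neighbour of Col4a3, read 33.6 CPM against 3.84 to 13.2 CPM. The kidney tubule markers were at 1798 CPM in that library and at most 7.88 CPM elsewhere. The part of kidney RNA in these levels was not tested. The Col17a1 difference of -5.67 (SE 2.24, edgeR adjusted p = 0.774) between ACTH-treated and untreated glands came down to -1.80 without that library, and the Col4a3 difference between ACTH-treated and untreated wild type went from -2.49 (SE 1.10, adjusted p = 1.0) to 0.19. For Col8a1 the difference between genotypes was -0.13 (SE 0.62, edgeR adjusted p = 0.955) with it and 0.80 without it.

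Col18a1 stood at 59.7 and 52.7 CPM in untreated and 55.03 and 257 CPM in ACTH-treated wild type, and at 52.2 and 45.2 CPM in untreated and 95.3 and 96.6 CPM in ACTH-treated Siah1a -/-. The highest value belonged to the wild-type library with liver transcripts. There, 4072 of the estimated counts were of NM_001109991, the transcript from the inner start at base 77113705 of chromosome 10, and the other 7 libraries held 1.40 to 59.7 counts of it. In RPKM this transcript stood at 21.2 there and at 0.014 to 0.37 elsewhere. NM_009929, the transcript from the upstream start printed above, stood at 10.6 and 9.03 RPKM in untreated and 8.91 and 15.5 RPKM in ACTH-treated wild type, and at 8.53 and 7.68 RPKM in untreated and 15.5 and 16.3 RPKM in ACTH-treated Siah1a -/-. By this transcript the 2 ACTH-treated Siah1a -/- libraries lay above the 2 untreated ones, as did 1 of the 2 wild-type libraries. For the whole gene the ACTH difference was 1.13 on the log2 scale (SE 0.40, edgeR adjusted p = 0.727), and without the library with liver transcripts it was 0.60 (adjusted p = 0.984). Within wild type it was 1.32 (SE 0.61, adjusted p = 1.0) with that library, -0.076 without it, and 2.26 without the other ACTH-treated wild-type library. Each of the latter fits leaves 1 treated wild-type library. Between genotypes the difference was -0.38 (SE 0.39, adjusted p = 0.731) with the library and 0.17 without it. The part of liver RNA in these values was not tested.

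**Figure D5:**
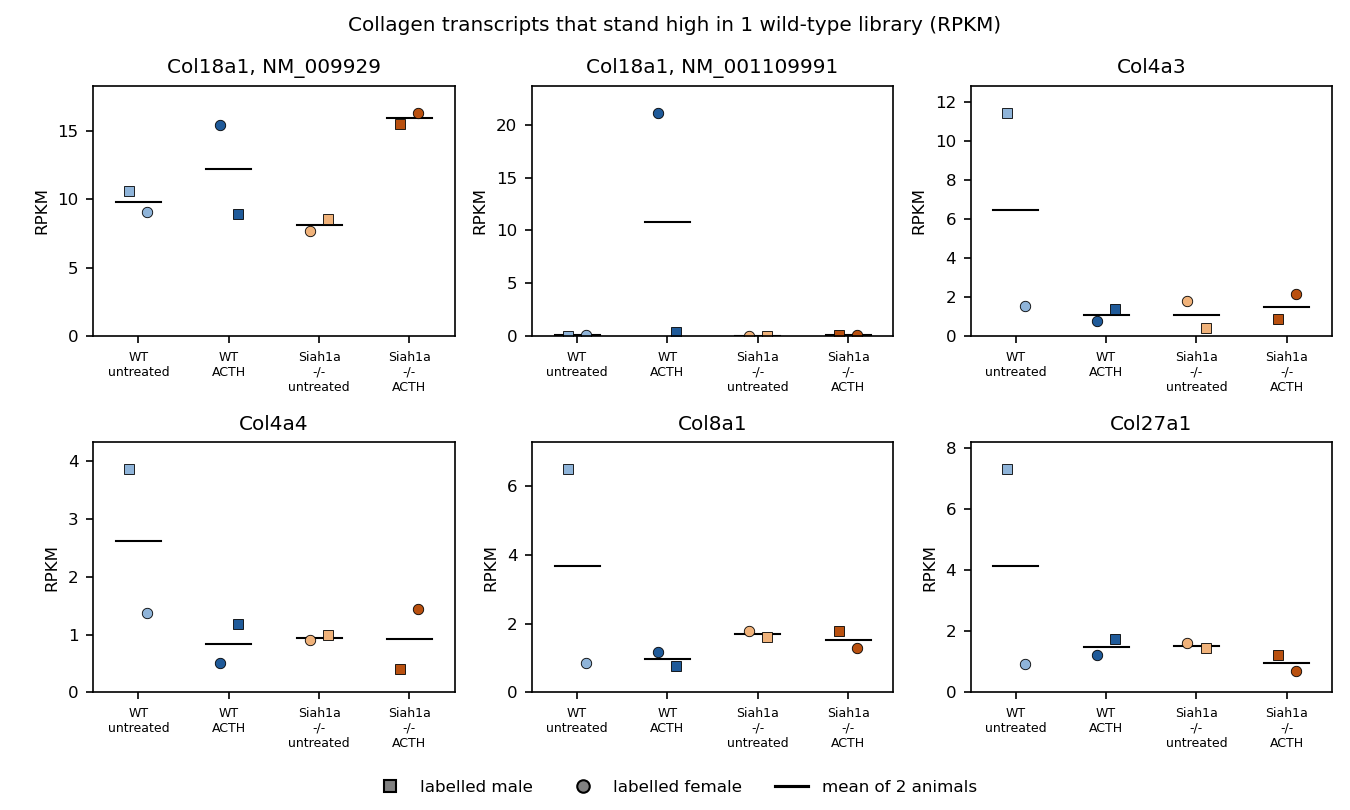
RPKM (y axes, linear from 0) of 2 Col18a1 transcripts and of Col4a3, Col4a4, Col8a1 and Col27a1 in each of the 8 libraries. NM_001109991 of Col18a1 reaches 21.2 RPKM in the wild-type ACTH library labelled female and at most 0.37 elsewhere, and the other 4 genes peak in the wild-type untreated library labelled male.

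The lowest library was often the same one. For 14 of the 22 members with a mean of at least 10 CPM the Siah1a -/- ACTH library labelled male had the lowest RPKM, and for 12 the lowest CPM. Summed over the 37 members it held 1632 CPM, against 2018 to 2913 CPM in the other 3 Siah1a -/- libraries and 2459 to 4099 CPM in wild type. Its fibroblast and capsule markers were the lowest of the 8 libraries, its neuronal markers the highest, and its 6 Schwann cell markers at 92.1 CPM against 21.5 to 39.2 CPM elsewhere. Of the 8 fibroblast and capsule genes, Nr2f2, Tcf21, Dpt and Pi16 were lowest there (Tcf21 at 0), and Gli1 was at 0 there and in 1 wild-type library. Pdgfra (36.4 CPM), Thy1 (19.0 CPM) and Wt1 (0.356 CPM) lay within the range of the other libraries. The part of these markers in the collagen levels was not tested. In the other direction, the wild-type ACTH library labelled male held the most collagen, and both wild-type ACTH libraries, at 4099 and 3253 CPM, lay above the other 6.

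Genes that make, process or bind collagen were compared as 6 lists, and 0 of their members were called in either average comparison. Of 22 measured genes of chain modification and export from the endoplasmic reticulum, 10 lay below 0 and 12 above in Siah1a -/- against wild type (median 0.058). P4hb, a subunit of prolyl 4-hydroxylase, averaged 552 ± 189 and 640.2 ± 123 CPM (log2 fold change 0.23, SE 0.25), and Plod2, a lysyl hydroxylase, 353 ± 59.8 and 366 ± 42.8 CPM (0.056, SE 0.17). Among 15 genes of extracellular processing and cross-linking, 12 lay below 0 (median -0.32). Sparc, a collagen-binding glycoprotein, had means of 4242 ± 816 CPM in wild type and 3184 ± 531 CPM in Siah1a -/- (-0.42, SE 0.21), and Pcolce, which helps to trim the ends of procollagen, 271 ± 94.8 and 172 ± 50.1 CPM (-0.64, SE 0.32), with edgeR adjusted p values of 0.435 and 0.436. Of 10 collagen-binding proteoglycans and glycoproteins 6 lay below 0 (median -0.33), yet decorin (Dcn), which coats collagen fibrils, had means of 233 ± 83.6 CPM in wild type and 373 ± 90.7 CPM in Siah1a -/- (0.73, SE 0.18, adjusted p = 0.178). Fn1 held 1005 CPM in the library with liver transcripts and 38.5 to 156 CPM in the others.

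Among 10 collagen receptors and uptake genes 6 lay below 0 (median -0.35). The integrin chain Itgb1 averaged 641 ± 68.9 and 630.5 ± 60.03 CPM, and Cd44 169 ± 31.0 and 333 ± 92.5 CPM (log2 fold change 0.95, SE 0.21, edgeR adjusted p = 0.146). Of 15 partners of collagen IV in basement membranes 10 lay below 0 (median -0.11), with Hspg2 (perlecan) at 236 ± 86.3 and 225 ± 78.5 CPM and the laminin chain Lamb1 at 175 ± 26.6 and 233 ± 20.4 CPM (0.41, SE 0.16, adjusted p = 0.305). Of 10 genes of TGF-beta and CCN signalling, which are known to drive collagen genes in fibroblasts, 1 lay below 0 and 9 above (median 0.18). The receptors Tgfbr2 (109.8 ± 18.2 and 114 ± 10.7 CPM) and Tgfbr1 (98.8 ± 14.6 and 98.9 ± 15.1 CPM) differed by less than their spread. Outside the rule for named genes, and chosen after their values were seen, Ctgf and Cyr61, matricellular proteins of the CCN family, had the lowest p of the list. Ctgf stood at 48.5 to 63.2 CPM in wild type and 73.5 to 145 CPM in Siah1a -/- (log2 fold change 0.98, SE 0.17), and Cyr61 at 11.1 to 24.9 CPM and 31.6 to 109 CPM (1.96, SE 0.34). Neither overlapped between genotypes, as held with Siah1a -/- above wild type for 4.21% of all genes, and neither was called (edgeR adjusted p = 0.0997 for each). After ACTH, the medians of the 6 lists lay between 0.041 and 0.31.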

How the data were processed

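RNA was extracted from 8 adrenal glands with TRIzol, and directional single-end libraries were sequenced on an Illumina NextSeq, per the labels' protocols. The submitters' processing notes name FastQC 0.11, TopHat2 2.0.13, Bowtie2 2.2.5.0, Partek 6.6 and mm10, with no settings, and how strand and reads with several matches were handled was not given in the sources used here. The authors deposited, per the file headers, an estimated count and an RPKM value for each RefSeq transcript. Estimated counts were summed per gene symbol and rounded, and RPKM values were summed per symbol for levels per length. Transcript shares that were the same in all libraries (Col11a2, for example) hold no information on isoforms.

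Genes were kept with edgeR's filterByExpr (minimum count 10), leaving 15361 of 18846, scaled by TMM and tested with edgeR's quasi-likelihood test (edgeR 4.0.16, R 4.3.3, two-sided) with genotype, treatment and sex label as terms (4 residual degrees of freedom), and with an added interaction (3 residual degrees of freedom) for the contrasts within a genotype or treatment. Benjamini-Hochberg adjustment ran over all genes tested, and a gene was called at an adjusted p under 0.05. The scripts were tested on simulated counts. Alternatives were RLE size factors, no filter, DESeq2 1.42.0, limma-voom (limma 3.58.1), no sex covariate and left-out libraries. Floors of 3 counts cover counting error only. Gene positions are from GENCODE M21 and start regions from RefSeq (GRCm38.p6).

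The members and lists were chosen with earlier results of these data known. Statistics are given, in each comparison, for the 4 members with the smallest p and, in both average comparisons, for the 2 members of each class with the highest mean RPKM; of each list of related genes the 2 with the highest mean CPM are named.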

Additional observations from a re-analysis of the deposited data

Results flagged for a closer look

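In 148 groups of 4 libraries (37 collagen genes, each in wild type, Siah1a -/-, untreated and ACTH-treated glands), 23 held a library whose distance to the nearest of the others exceeded Dixon's 95% limit for a group of 4, as a share of the group's range. Chance gives about 1 such group in 20 for normally distributed values of 1 population. These groups hold CPM on a linear scale, each mixes treatments or genotypes, and groups of 1 gene share libraries. The 23 of 148 can therefore not be read against that share. Of the 23, 9 belonged to the wild-type untreated library labelled male: Col4a3 at 109.8 CPM (among wild type and among untreated), Col27a1 at 62.2 CPM (both), Col17a1 at 9.41 CPM (both), Col8a1 at 37.0 CPM and Col10a1 at 10.1 CPM among wild type, and Col4a4 at 33.6 CPM among untreated glands. Col17a1 reached the count minimum for membership only through this library, so its pair of entries restates that rule. Its kidney markers are given in the report, and their part was not tested.

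The wild-type ACTH library labelled female stood apart in Col18a1 (257 CPM in wild type, others 52.7 to 59.7) and in Col17a1 (0.420 CPM among ACTH-treated). The wild-type ACTH library labelled male stood apart in Col4a2, at 460.0 CPM against 252 to 285 CPM in the rest of wild type. In Col6a1 the wild-type untreated library labelled female was high, at 589.6 CPM, against 208 to 269.9 CPM in the other untreated glands.

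Within Siah1a -/- the ACTH-treated library labelled female was the high one for Col5a2 (76.8 CPM, others 38.8 to 39.2), Col15a1 (44.6 CPM, others 11.1 to 15.4) and Col6a6 (2.76 CPM, others 0 to 0.465), and the low one for Col20a1 among ACTH-treated glands (3.06 CPM, others 8.48 to 9.25). The Siah1a -/- ACTH library labelled male had 2.06 CPM of Col11a2 within its genotype, and among ACTH-treated glands 21.4 CPM of Col23a1 (others 6.94 to 7.33) and 17.3 CPM of Col4a5 (others 62.3 to 71.2). The untreated Siah1a -/- library labelled male was low in Col5a1 (62.9 CPM, others 80.9 to 84.1) and high in Col12a1 (54.7 CPM, others 30.3 to 32.7) among untreated glands. The untreated one labelled female held the 0.975 CPM of Col17a1 in Siah1a -/-, where the other 3 libraries had no counts.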

How the results depend on the processing

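No paired analysis was possible because the labels carry no replicate numbers that tie animals together; animals were matched only by treatment and sex label, and sex label was a term of the fits. The count of collagen genes called was 0 in all 7 comparisons. Alternatives were run for it and for the count of members lowest in the Siah1a -/- ACTH library labelled male. Of these, 79 kept the result, with 12 members by CPM against 14 by RPKM taken as kept. Under 4 the count called moved. DESeq2 called 2 in Siah1a -/- against wild type and 3 after ACTH. Leaving out each library in turn gave 0 to 1 in Siah1a -/- against wild type. The count for ACTH within wild type moved when its ACTH-treated library labelled male was left out, which leaves 1 treated library. Of the values of single genes, 690 kept direction and side of the threshold, 7 passed it and 37 changed sign. The cause was not tested. Without both wild-type libraries with kidney or liver RNA, Siah1a -/- against wild type gave log2 fold changes of 0.33 for Col18a1, 1.04 for Col8a1 and -0.014 for Col28a1, ACTH against untreated -0.26 for Col6a1 and 0.12 for Col25a1, and the interaction -0.89 for Col4a3. Limma-voom gave 0.20 for Col8a1 between genotypes, and a fit without sex label -0.049 for Col6a1 under ACTH. Leaving out each library in turn, Siah1a -/- against wild type ranged from -0.29 to 0.083 (Col4a1), -0.52 to 0.12 (Col1a2), -0.24 to 0.072 (Col4a2), -0.71 to 0.17 (Col18a1), -0.26 to 0.22 (Col16a1), -0.44 to 0.80 (Col8a1), -0.32 to 0.87 (Col8a2) and -1.05 to 0.12 (Col7a1). ACTH against untreated ranged from -0.33 to 0.20 (Col6a1), -0.0029 to 0.47 (Col16a1), -0.76 to 0.16 (Col13a1), -0.40 to 0.068 (Col25a1), -1.11 to 0.049 (Col8a1), -0.16 to 1.72 (Col28a1) and -1.15 to 0.46 (Col7a1), within wild type from -3.58 to 0.19 (Col4a3) and -0.076 to 2.26 (Col18a1), and within Siah1a -/- from -0.13 to 1.10 (Col5a2). Of the values that kept their sign but moved by over 1.5 times, several ranged, between genotypes, from -1.20 to -0.22 (Col3a1), -1.75 to -0.78 (Col15a1), -1.31 to -0.61 (Col6a2), -0.84 to -0.43 (Col5a1), -0.56 to -0.12 (Col25a1) and 0.57 to 1.48 (Col13a1), among untreated glands from -3.99 to -0.21 (Col4a3), -2.04 to -0.38 (Col14a1) and -1.24 to -0.40 (Col25a1), after ACTH from -1.53 to -0.40 (Col6a3) and -2.19 to -1.09 (Col6a1), and in the interaction from -1.69 to -0.46 (Col6a1) and -2.12 to -0.42 (Col14a1). With 2 animals a group and library totals that differ 3.69-fold, small differences of weakly counted members were not detectable.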
